A study of Mus musculus with 26 samples.

Results

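The 8 colon samples described here came from mice that received neither azoxymethane (AOM, a carcinogen) nor dextran sodium sulfate (DSS, which damages the colonic epithelium), and the question was whether the colon transcriptome differed between 43 and 22 days of diet. They were chosen by their titles among 26 bulk RNA-seq samples of an AOM–DSS tumour experiment, in which untreated mice were the controls. Of the 8, 4 were collected on day 43 and 4 on day 22, with 2 on a standard diet and 2 on a diet containing GW3965 at each day. GW3965 is a synthetic agonist of the liver X receptors (LXR), nuclear receptors that sense oxysterols and switch on cholesterol export and lipid synthesis genes. All mice were wild-type C57BL/6J males from 1 vendor (Taconic), about 10 weeks old at the start, and all 8 RNA samples had an RNA integrity number of 10, the top of that scale. According to the labels, the 4 standard-diet samples shared cage E and the 4 GW3965 samples shared cage F. Diet and cage therefore cannot be told apart, and neither can days of diet, age and date of collection. The study's reporting summary describes its bulk RNA-seq samples as pools of 2 or 3 replicates, while a figure legend gives 3 to 4 mice per timepoint. The labels do not give the number of mice behind a sample. One sample, GW3965 day 43 replicate 2, names GW3965 in its title and the standard diet in its diet label, and was placed by its title.

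The colon wall holds an epithelium renewed every few days from crypt stem cells, a lamina propria rich in IgA-secreting plasma cells, organized lymphoid follicles, and an outer coat of smooth muscle with enteric neurons. The RNA was taken from biopsies of the distal colon, so that a sample mixes these layers, and fewer cells of a type cannot be told apart from less RNA per cell. In a feeding animal, insulin and growth factor signals keep FOXO transcription factors out of the nucleus and allow MYC-driven ribosome production. When nutrients are scarce, FOXO factors enter the nucleus and switch on genes of proteolysis and autophagy such as *Fbxo32* and *Klhl24*.

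Total estimated counts were between 18328026 and 20964123 per sample and were summed to genes, and 15722 genes passed edgeR's filter on low counts. Epithelial markers were high in every sample (*Car1*, a carbonic anhydrase of surface colonocytes, 556.5 to 1959 TPM, a transcript level scaled for length and depth), and *Ins2* of the pancreas was listed at 0 in all 8. Smooth muscle differed widely between the samples. Counts scaled to the library (CPM), summed over 20 smooth muscle genes, were 19707 and 41853 in the standard day 22 samples and 17936 and 14320 in those of day 43, and were 9600 and 18898 against 22585 and 25365 on GW3965. Standard day 22 replicate 2 was thus the richest in muscle and GW3965 day 22 replicate 1 the poorest. The first principal component (31.5% of the variance) placed standard day 22 replicate 2 at one end, at -56.2, and standard day 43 replicate 2 at the other, at 42.4. No pair of samples held identical values.

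With diet as an additive term, none of the 15722 genes differed between 43 and 22 days of diet at a false discovery rate (FDR) under 0.05 (0% called). At an unadjusted p under 0.05, edgeR's quasi-likelihood F-test gave 295 genes higher at 43 days (1.88%) and 362 lower (2.3%). DESeq2 called 17 genes at the same FDR, and limma-voom 0. The 4 samples of day 43 lay wholly above the 4 of day 22 for 213 genes (1.35%) and wholly below for 247 (1.57%). The median absolute log2 fold change was 0.12, against 0.28 for the standard diet alone and 0.18 for the GW3965 diet alone.

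The genes of smallest p are therefore given as values. In this and later sentences the 4 values after the standard diet are those of GW3965, replicates 1 and 2 at 22 days and then at 43 days. *Dbp*, an output gene of the circadian clock, was 146 and 187 CPM at 22 days and 85.5 and 93.7 at 43 days on the standard diet, against 197, 178, 118 and 143 on GW3965. All 4 samples of day 43 lay below all 4 of day 22, with a log2 fold change of -0.71 ± 0.13 (SE) and an adjusted p of 0.998 by edgeR. *Cidec*, which fuses lipid droplets in fat cells, was 15.3 and 15.3 CPM at 22 days and 5.49 and 1.01 at 43 days on the standard diet, against 6.99, 13.6, 1.68 and 2.32 on GW3965. Its samples again did not overlap between the days (log2 fold change -2.29 ± 0.45 (SE), adjusted p = 0.998, edgeR). *Tns4*, a tensin of focal adhesions, also lay lower in every day 43 sample, at 125 to 191 CPM against 240 to 339 CPM. *Max*, the partner with which MYC binds DNA, *Apoc1*, a lipoprotein component, and *Ifit1bl1*, a relative of the interferon-induced *Ifit1*, completed the 6 lower genes, with log2 fold changes of -0.50, -1.84 and -0.70 and overlapping samples.

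Among the 6 higher genes, *Ceacam10*, a secreted member of the carcinoembryonic antigen family, was 30.6 and 19.7 CPM at 22 days and 72.2 and 49.2 at 43 days on the standard diet, against 46.0, 42.6, 101 and 63.9 on GW3965. Every day 43 sample lay above every day 22 sample, with a log2 fold change of 1.08 ± 0.21 (SE) (adjusted p = 0.998, edgeR). *Nup93* of the nuclear pore, *Snrpd3* of the spliceosome core, *Mybl2*, a transcription factor of dividing cells, and *Ccr10*, a chemokine receptor of IgA plasma cells, also did not overlap between the days, with log2 fold changes of 0.50, 0.47, 1.16 and 1.86. *Socs7*, of the suppressor of cytokine signalling family, had a log2 fold change of 4.34 that rested on 3 samples. Its values at 43 days were 11.4, 0.266, 3.17 and 8.20 CPM, and those at 22 days were 0.047 to 0.626 CPM. None of these 12 genes passed edgeR's test after its filter on low counts. By DESeq2 or by edgeR without that filter, some did, and the lowest adjusted p of *Cidec* was 0.00421. It was 0.00548 for *Dbp*, *Ceacam10* and *Socs7*, 0.0147 for *Tns4*, 0.0207 for *Apoc1* and *Ifit1bl1*, and 0.0378 for *Max*. *Nup93*, *Snrpd3*, *Mybl2* and *Ccr10* passed by neither.

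**Figure D1:**
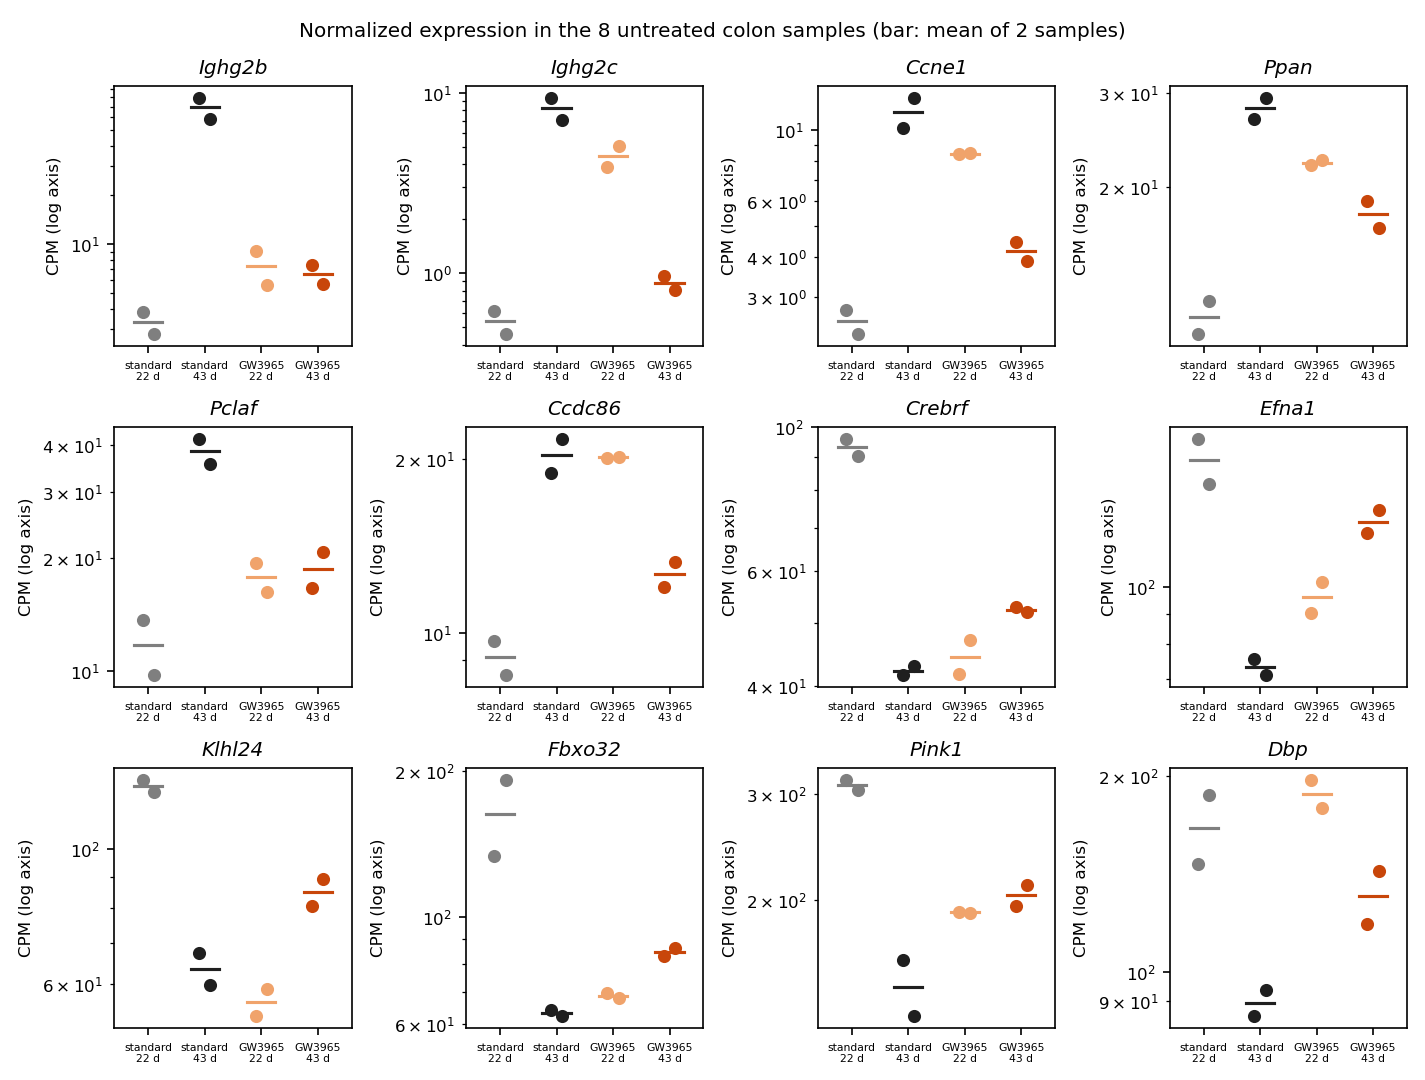
Normalized expression (CPM, log axis) of 12 genes in the 8 untreated samples, by diet and days of diet, with 1 point per sample and a bar at the mean of 2 samples. *Dbp* is lower at 43 days on both diets, whereas *Crebrf*, *Klhl24* and *Fbxo32* are highest in the 2 standard day 22 samples and *Ccne1*, *Ppan* and *Ccdc86* are lowest there.

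In 6 of the gene lists, at least 4 members were at an unadjusted p under 0.05 in 1 direction and none in the other, with 1.88% of all genes higher and 2.3% lower by the same measure. Of 15 adipocyte genes, 8 were lower and 0 higher at 43 days (median log2 fold change -0.93, against -0.0039 over all genes), and in 5 of the 15 all day 43 samples lay below those of day 22, against 1.57% of all genes. *Adipoq*, the fat cell hormone adiponectin, was 8.78 and 14.3 CPM at 22 days and 5.91 and 0.0533 at 43 days on the standard diet, against 5.95, 14.2, 1.73 and 2.54 on GW3965. *Car3*, a carbonic anhydrase abundant in fat, did not pass either (log2 fold change -2.29 ± 0.67 (SE), adjusted p = 0.998, edgeR). Standard day 43 replicate 2 had the least of both genes, which mark fat around the colon, and the part of sampled fat in these values was not tested. Of 6 erythroid genes, 4 were lower (median -0.91), with *Hbb-bs*, a beta globin, at 392 and 410.2 CPM at 22 days and 145 and 234 at 43 days on the standard diet, against 409, 159.6, 157 and 146 on GW3965. Globin was high in 3 day 22 samples and in none of the day 43 samples to the same level, and residual blood was not tested.

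Of 20 circadian clock genes, 5 were lower and 0 higher (median -0.23). In 3 of the 20, *Dbp*, *Tef* and *Ciart*, all day 43 samples lay below those of day 22, against 1.57% of all genes. *Tef*, which encodes a factor of the same family as DBP, was 192 and 193 CPM at 22 days and 114 and 128 CPM at 43 days on the standard diet, and 185 and 184 CPM against 170 and 176 CPM on GW3965. The gap was wide on the standard diet and narrow on GW3965 (log2 fold change of the difference 0.57 ± 0.16 (SE), unadjusted p = 0.00745, adjusted p = 0.174, edgeR). *Ciart*, a repressor of the clock, was 10.6 and 11 CPM at 22 days and 5.77 and 10.1 at 43 days on the standard diet, against 18.2, 15.4, 8.45 and 9.82 on GW3965. The hour of collection is not given in the sources used here. Of 30 cell cycle genes, 5 were higher and 0 lower (median 0.42). Of 21 plasma cell genes, 4 were higher and 0 lower (median 0.95). LXR target genes, which the GW3965 diet is meant to induce, had 4 of 14 lower and 0 higher (median -0.25). *Scd1*, a fatty acid desaturase, was 226 and 375 CPM at 22 days and 245 and 154 at 43 days on the standard diet, against 656, 875, 416 and 459 on GW3965 (unadjusted p = 0.00909, adjusted p = 0.998, edgeR). The sterol exporter gene *Abcg8* stayed at 49.4 to 64.2 CPM in the 4 GW3965 samples and at 3.68 to 9.24 CPM in the 4 standard samples. The sample with the conflicting label thus lay with the diet of its title. Its mean log2 CPM over the LXR target genes was 7.33. That mean was 7.34 to 7.44 in the other GW3965 samples and 5.62 to 6.12 in the standard samples. The medians of these lists moved when 1 sample was left out. The adipocyte median lay between -1.89 and -0.62, with the lowest value without standard day 43 replicate 1, and the erythroid median was -0.43 without GW3965 day 22 replicate 1. The clock median was -0.14 without either standard day 22 replicate 2 or standard day 43 replicate 1, and the cell cycle median was 0.20 without standard day 22 replicate 2. The plasma cell median was 0.34 without standard day 43 replicate 1 and 1.60 without GW3965 day 43 replicate 2. The LXR target median was -0.09 without standard day 43 replicate 2, -0.13 without standard day 22 replicate 2 and -0.14 without standard day 22 replicate 1.

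The pooled comparison averages over 2 diets, whose changes were also compared with each other. When the difference was tested directly, as the change from 22 to 43 days on GW3965 minus that on the standard diet, 2 genes passed an FDR of 0.05 (0.0127%), and at an unadjusted p under 0.05 there were 1463 genes with a positive difference (9.31%) and 1541 with a negative one (9.8%). Within the standard diet, 15 genes passed (0.0954%), of which 9 rose and 6 fell, and 1598 were higher (10.2%) and 1490 lower (9.48%) at an unadjusted p under 0.05. Within the GW3965 diet, none passed (0%) by edgeR, with 310 higher (1.97%) and 464 lower (2.95%) at an unadjusted p under 0.05, 9 genes called by DESeq2 and 0 by limma-voom. The standard-diet contrast and the difference share their 4 standard samples, so that they are not independent of each other. These counts depended on single samples. Without standard day 22 replicate 2, neither the standard-diet test nor the test of the difference called a gene, and without standard day 22 replicate 1 they called 484 and 682. Without standard day 43 replicate 1 they called 11 and 4, and without standard day 43 replicate 2 they called 38 and 13. Leaving out GW3965 day 22 replicate 1 or 2 left 1 and 0 calls each, leaving out GW3965 day 43 replicate 1 left 3 and 1, and leaving out GW3965 day 43 replicate 2, the sample with the conflicting label, left 3 and 0. DESeq2 called 924 genes on the standard diet and 705 for the difference, and limma-voom 3 and 0. The counts at an unadjusted p under 0.05 depended on single samples too. In the pooled comparison they ran from 322 without standard day 43 replicate 1 to 1020 without GW3965 day 22 replicate 1, and for the difference from 1622 without GW3965 day 43 replicate 2 to 4681 without standard day 22 replicate 1. On the standard diet they ran from 1831 without standard day 43 replicate 2 to 4439 without standard day 22 replicate 1, and on GW3965 from 325 without GW3965 day 43 replicate 1 to 1429 without GW3965 day 22 replicate 2.

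Across the 15722 genes, the log2 fold changes of the diets, which come from different samples, had Pearson's r = -0.14 and Spearman's rho = -0.37, given as a description since genes are not independent replicates and all 8 samples were normalized together. The signs were opposite for 64.5% of all genes. An unadjusted p under 0.05 on both diets was reached by 275 genes, which is 8.9% of the 3088 of the standard diet and 35.5% of the 774 of the GW3965 diet. Of the 275, 237 went in opposite directions and 38 in the same direction.

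**Figure D2:**
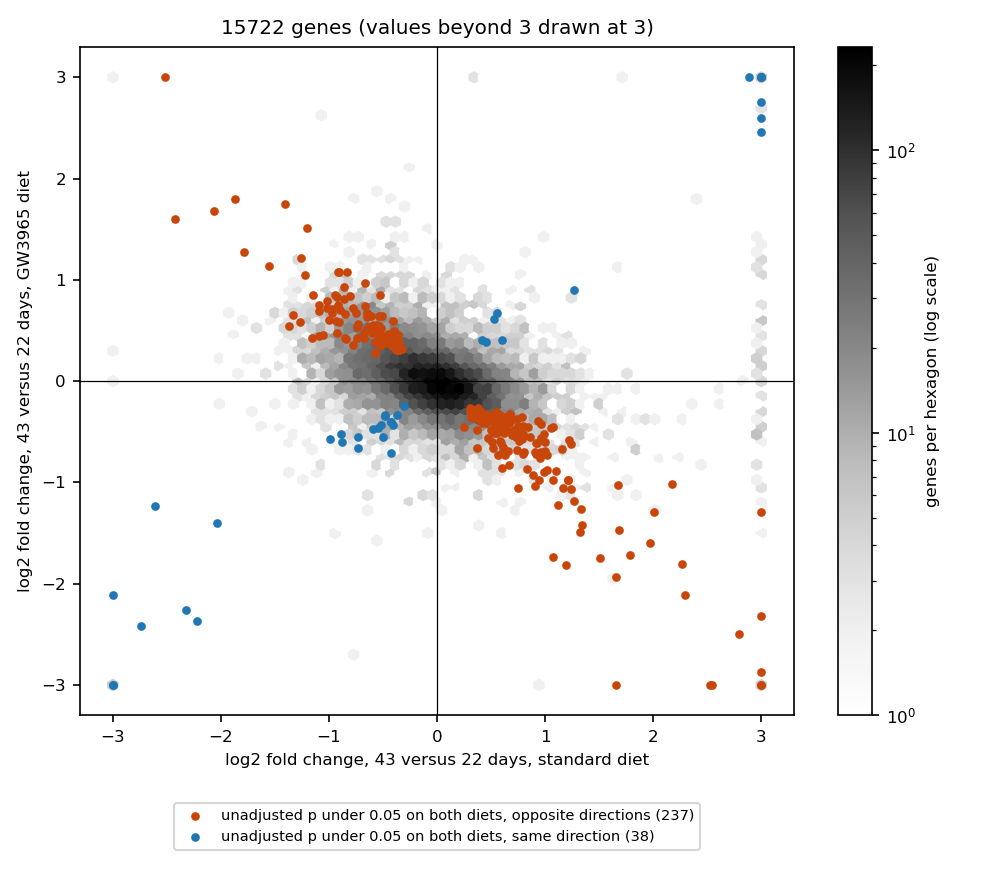
Log2 fold change from 22 to 43 days on the standard diet (x axis) against that on the GW3965 diet (y axis) for 15722 genes, shaded by the number of genes per hexagon, with values beyond 3 drawn at 3. Of the 275 genes with an unadjusted p under 0.05 on both diets, 237 (orange) lie in the quadrants of opposite direction and 38 (blue) in those of the same direction.

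The gene names of the 15 genes called on the standard diet fell into 3 groups. Of these, 5 were immunoglobulin genes, 3 of them single variable segments, and 2 others were gene models without a usual symbol. The remaining 8 were 3 genes of growth and division that rose (*Ccne1*, *Ppan*, *Pclaf*) and 5 genes that fell (*Crebrf*, *Efna1*, *Klhl24*, *Fbxo32*, *Pink1*), 4 of them known for starvation responses or the disposal of proteins and mitochondria.

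*Crebrf* (ENSMUSG00000048249.14, chromosome 17, 26715650 to 26776635 on GRCm38), an inhibitor of the transcription factor CREB3 that is induced by starvation, was 96.0 and 90.4 CPM at 22 days and 41.5 and 42.9 at 43 days on the standard diet, against 41.7, 47.0, 52.9 and 51.9 on GW3965. Both standard day 22 samples lay above the other 6, which were between 41.5 and 52.9 CPM. It fell on the standard diet by a log2 fold change of -1.14 ± 0.11 (SE), adjusted p = 0.0402, and its change on GW3965 was 0.24 ± 0.11 (SE), adjusted p = 0.869 (edgeR). The difference between the diets was 1.38 ± 0.16 (SE) and missed the threshold at an adjusted p of 0.0727 (edgeR).

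*Klhl24* (ENSMUSG00000062901.3, chromosome 16, 20097542 to 20129221), an adaptor of a ubiquitin ligase, was 130.2 and 124 CPM at 22 days and 67.4 and 59.8 at 43 days on the standard diet, against 53.1, 58.8, 80.6 and 89.3 on GW3965. It was thus high at 22 days on the standard diet and low at 22 days on GW3965. On the standard diet it fell by 1.00 ± 0.12 (SE) on the log2 scale (adjusted p = 0.0479, edgeR). It had the smallest p of the higher genes on GW3965, at 0.60 ± 0.12 (SE) (unadjusted p = 0.00113, adjusted p = 0.869, edgeR), and the smallest p of the positive differences between the diets, at 1.60 ± 0.17 (SE) (adjusted p = 0.0586, edgeR).

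*Fbxo32* (ENSMUSG00000022358.7, chromosome 15, 58175879 to 58214932), the ubiquitin ligase atrogin-1 of muscle wasting, was 134 and 192 CPM at 22 days and 64.2 and 62.4 at 43 days on the standard diet, against 69.6, 67.8, 83.0 and 86.4 on GW3965. It fell on the standard diet (log2 fold change -1.36 ± 0.17 (SE), adjusted p = 0.048, edgeR). *Pink1* (ENSMUSG00000028756.12, chromosome 4, 138313409 to 138326307), the kinase that marks damaged mitochondria for removal, was 317 and 305 CPM at 22 days and 158 and 128 at 43 days on the standard diet, against 191, 190.3, 195 and 212 on GW3965. It too fell on the standard diet, by 1.12 ± 0.14 (SE) on the log2 scale (adjusted p = 0.0489, edgeR). *Efna1* (ENSMUSG00000027954.9, chromosome 3, 89271733 to 89281142), a membrane ligand of Eph receptors, fell from 178 and 149 CPM to 75.5 and 71.0 CPM on the standard diet (log2 fold change -1.16 ± 0.13 (SE), adjusted p = 0.0479, edgeR), and was 90.4 and 102 CPM at 22 days and 123 and 135 CPM at 43 days on GW3965. *Edn1*, the vasoconstrictor endothelin 1, and *Ypel2* had the same pattern without passing (differences between the diets 3.07 ± 0.42 (SE) and 1.52 ± 0.23 (SE), adjusted p = 0.0929 and 0.113, edgeR).

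In the opposite direction, *Ccne1* (ENSMUSG00000002068.16, chromosome 7, 38097984 to 38107534), cyclin E1 of the entry into DNA replication, was 2.74 and 2.29 CPM at 22 days and 10.2 and 12.6 at 43 days on the standard diet, against 8.40, 8.46, 4.46 and 3.89 on GW3965. It rose on the standard diet by a log2 fold change of 2.18 ± 0.24 (SE), adjusted p = 0.0479, and on GW3965 its change was -1.01 ± 0.23 (SE), adjusted p = 0.869 (edgeR). *Ppan* (ENSMUSG00000004100.12, chromosome 9, 20888175 to 20892178), which matures the large ribosomal subunit, was 10.5 and 12.2 CPM at 22 days and 26.8 and 29.4 at 43 days on the standard diet, against 21.9, 22.4, 18.8 and 16.7 on GW3965. It rose on the standard diet (log2 fold change 1.31 ± 0.15 (SE), adjusted p = 0.0479, edgeR). *Pclaf* (ENSMUSG00000040204.6, chromosome 9, 65890237 to 65903266), which binds the replication clamp PCNA, rose from 13.6 and 9.73 CPM to 41.5 and 35.6 CPM on the standard diet (log2 fold change 1.72 ± 0.21 (SE), adjusted p = 0.0479, edgeR), and lay between 16.3 and 20.7 CPM in the 4 GW3965 samples. *Ccdc86*, a nucleolar protein, and *Chst4*, a sulfotransferase of mucins and lymphocyte homing ligands, had differences between the diets of -1.83 ± 0.22 (SE) and -2.05 ± 0.26 (SE) that did not pass (adjusted p = 0.0755 for both, edgeR). In the 8 called genes the 2 standard day 22 samples lay beyond the other 6 samples, while for *Edn1* and *Chst4* a GW3965 day 43 sample reached into their range.

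The lists of ribosome biogenesis, FOXO and fasting-induced, and NF-kB target genes were added after such values had been seen and are a description of this pattern, not evidence for it. For the list counts on each diet, the shares of all genes at an unadjusted p under 0.05 were 10.2% higher and 9.48% lower on the standard diet, and 1.97% higher and 2.95% lower on GW3965. Of 40 ribosome biogenesis genes, 32 were higher and 0 lower at 43 days on the standard diet at an unadjusted p under 0.05 (median log2 fold change 0.61), against 0 higher and 11 lower on GW3965 (median -0.20). The most abundant, *Npm1* and *Ncl* of the nucleolus, were not part of this, with changes on the standard diet of 0.02 and -0.07. Of 29 FOXO and fasting-induced genes, 0 were higher and 18 lower on the standard diet (median -0.54), against 7 higher and 0 lower on GW3965 (median 0.23). *Foxo3* itself was 150.5 and 113 CPM at 22 days and 69.3 and 89.2 at 43 days on the standard diet, against 97.5, 95.7, 86.6 and 91.4 on GW3965, and *Bnip3*, of mitochondrial autophagy, was 83.7 and 107 CPM against 47.1 and 45.7 CPM on the standard diet and 111 and 88.2 CPM against 87.9 and 83.6 CPM on GW3965. Of 20 NF-kB target genes, 7 were higher and 2 lower on the standard diet and 0 higher and 7 lower on GW3965, with *Rel*, an NF-kB subunit, at 8.62 and 9.28 CPM at 22 days and 16.3 and 17.6 at 43 days on the standard diet, against 15.3, 17.1, 10.5 and 10.7 on GW3965.

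The letters CACGTG are the E-box read by MYC with MAX, by the clock factors and by TFE3, which responds to starvation. They were searched in RefSeq promoters (GRCm38.p6) that run from 250 bases before to 50 bases after a gene's start, and since they read the same on both strands 1 search covered both. The E-box stood in the promoters of 12 of the 35 tested ribosome biogenesis genes that had one in the table (34.3%), 6 of 22 FOXO and fasting-induced genes (27.3%), 5 of 16 clock genes (31.2%), 4 of 14 cholesterol synthesis genes (28.6%) and 1 of 25 cell cycle genes (4%), and in 1291 of 11719 tested protein-coding genes (11.02%). GTAAACA, a FOXO-type site searched on both strands (TGTTTAC on the other), stood in 2 of the 22 FOXO and fasting-induced genes (9.09%) and in 383 of all 11719 (3.27%). Promoters on 1 chromosome were left out of all these counts. A match describes the sequence and does not show binding. Promoters of 3 genes are shown because they carry the E-box (in capitals) in genes whose values went in opposite directions on the standard diet. That of *Ccdc86*, higher at 43 days, has an E-box beginning at position 23, counted from 0 at the start. That of *Crebrf*, which fell, has 2 E-boxes before the start, beginning at positions -125 and -14, and that of *Irs2*, an insulin receptor substrate that FOXO factors induce, has 1 beginning at position -44.
Ccdc86, minus strand, chr19:10949217-10949516: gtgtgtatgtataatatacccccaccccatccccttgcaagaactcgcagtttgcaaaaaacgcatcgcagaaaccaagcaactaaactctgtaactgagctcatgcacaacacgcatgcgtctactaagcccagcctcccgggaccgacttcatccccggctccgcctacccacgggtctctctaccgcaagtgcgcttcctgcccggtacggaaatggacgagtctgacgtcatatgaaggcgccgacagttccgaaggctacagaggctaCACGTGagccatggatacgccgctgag
Crebrf, plus strand, chr17:26715400-26715699: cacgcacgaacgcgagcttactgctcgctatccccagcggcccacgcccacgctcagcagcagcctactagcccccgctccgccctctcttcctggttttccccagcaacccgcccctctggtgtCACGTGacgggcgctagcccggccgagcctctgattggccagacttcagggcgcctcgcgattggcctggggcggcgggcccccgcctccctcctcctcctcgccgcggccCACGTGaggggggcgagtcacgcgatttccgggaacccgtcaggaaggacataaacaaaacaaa
Irs2, minus strand, chr8:11008880-11009179: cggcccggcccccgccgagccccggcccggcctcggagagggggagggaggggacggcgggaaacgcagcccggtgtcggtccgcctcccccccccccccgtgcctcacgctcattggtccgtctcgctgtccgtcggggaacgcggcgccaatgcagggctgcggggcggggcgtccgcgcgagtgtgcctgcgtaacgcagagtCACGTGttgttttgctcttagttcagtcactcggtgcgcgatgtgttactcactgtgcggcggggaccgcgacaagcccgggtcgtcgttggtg
*Irs2* was 54.3 and 46.1 CPM at 22 days and 23.8 and 23.1 at 43 days on the standard diet, against 19.7, 20.8, 26.5 and 41.7 on GW3965 (change on the standard diet -1.10 ± 0.21 (SE), unadjusted p = 0.000809, adjusted p = 0.0809, edgeR).

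Among the 10 named genes called on the standard diet, the 2 immunoglobulin genes had the largest fold changes. *Ighg2b* (ENSMUSG00000076613.4, chromosome 12, 113302965 to 113307933) and *Ighg2c* (ENSMUSG00000076612.8, chromosome 12, 113285325 to 113288932) encode the constant regions of IgG2b and IgG2c, which plasma cells secrete after switching class. *Ighg2b* was 3.82 and 2.80 CPM at 22 days and 79.2 and 59.0 at 43 days on the standard diet, against 9.08, 5.59, 7.44 and 5.72 on GW3965. The 2 standard day 43 samples stood far above the other 6. The gene rose on the standard diet by a log2 fold change of 4.38 ± 0.31 (SE), adjusted p = 0.0107, its change on GW3965 was -0.15 ± 0.28 (SE), and the difference passed at -4.53 ± 0.41 (SE), adjusted p = 0.0363 (edgeR). *Ighg2c* was 0.620 and 0.459 CPM at 22 days and 9.35 and 7.09 at 43 days on the standard diet, against 3.86, 5.03, 0.960 and 0.809 on GW3965. It rose on the standard diet (3.92 ± 0.36 (SE), adjusted p = 0.0402, edgeR) and had the smallest p of all genes on GW3965, in the other direction (-2.32 ± 0.34 (SE), unadjusted p = 0.000146, adjusted p = 0.869, edgeR). The difference between the diets, -6.23 ± 0.50 (SE) with an adjusted p of 0.0272 by edgeR, was the largest of the 12 genes named for that test. The constant regions of the IgG classes share much of their sequence, and the division of reads between them by the quantification is uncertain.

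*Igha*, the constant region of IgA and the main product of gut plasma cells, was 230.5 and 331 CPM at 22 days and 5132 and 1592 at 43 days on the standard diet, against 237, 486, 785 and 225 on GW3965. The standard day 43 samples were the highest but differed widely from each other, and the gene did not pass (change on the standard diet 3.58 ± 0.76 (SE), adjusted p = 0.0938; difference -3.10 ± 0.99 (SE), adjusted p = 0.2, edgeR). Compared per length, in TPM, *Igha* reached 6586 and *Ighg2b* 87.3 in standard day 43 replicate 1. Immunoglobulin genes took 0.0894% ± 0.0360 of all counts (SD, n = 4) at 22 days and 0.486% ± 0.558 (SD, n = 4) at 43 days (two-sided exact permutation test within diets, p = 0.167, with 0.0556 the smallest that the design allows). Of 154 variable segments tested, 102 were higher and 0 lower on the standard diet at an unadjusted p under 0.05 and 3 passed the FDR, while 8 were higher and 4 lower on GW3965. In standard day 43 replicate 1 the most abundant heavy-chain segment, *Ighv6-3*, held 22.6% of the heavy variable counts, against 6.79% to 12.7% for the leading segments of the other 7 samples.

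**Figure D3:**
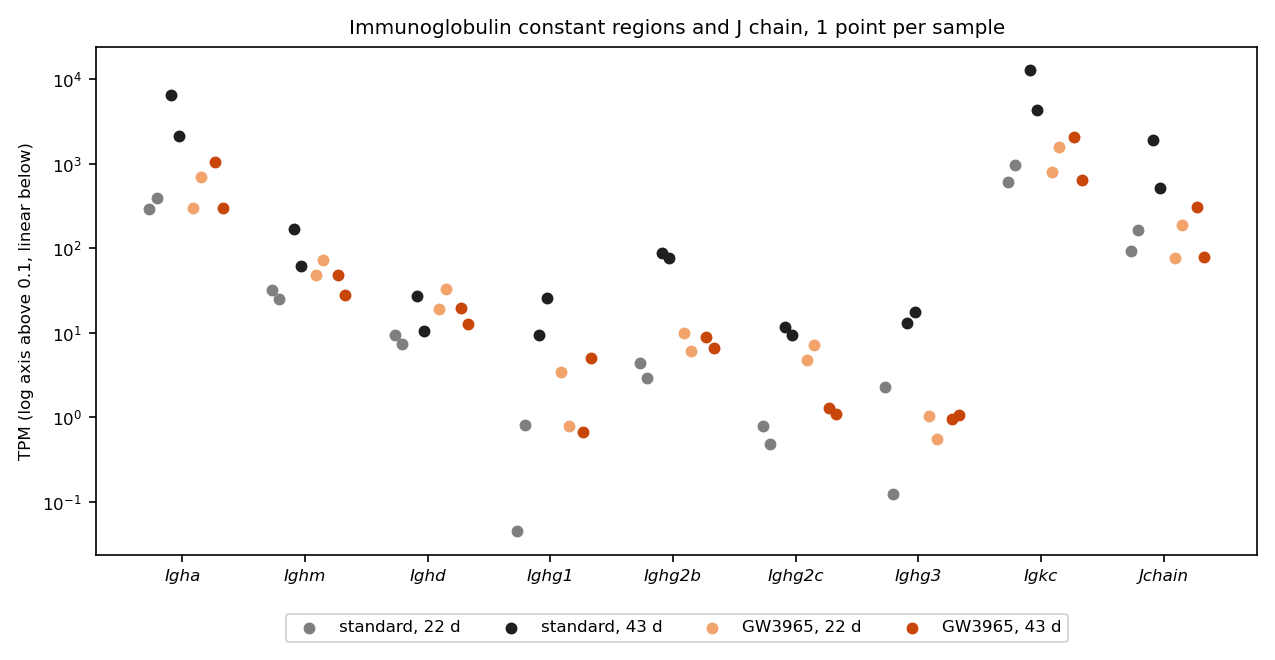
TPM of immunoglobulin constant regions and the J chain, 1 point per sample, on an axis that is logarithmic above 0.1 and linear below it. The 2 standard day 43 samples are the highest for *Igha*, *Ighg2b*, *Ighg2c*, *Ighg3*, *Igkc* and *Jchain*, and *Ighg2c* is lower at 43 than at 22 days on GW3965.

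The B-lineage lists went the same way. The plasma cell list holds *Ighg2b*, *Ighg2c*, *Igha*, other immunoglobulin constant regions and the J chain, so that it partly repeats the genes above. Of 21 plasma cell genes, 16 were higher and 0 lower on the standard diet at an unadjusted p under 0.05 (median log2 fold change 2.18), against 0 higher and 2 lower on GW3965 (median -0.15). *Derl3*, of protein disposal in secretory cells, was 0.465 and 0.917 CPM at 22 days and 6.93 and 3.09 at 43 days on the standard diet, against 0.887, 0.892, 1.39 and 0.809 on GW3965. Of 20 B cell genes, 15 were higher and 0 lower on the standard diet (median 1.31), and none passed 0.05 in either direction on GW3965 (median -0.72). *Ms4a1*, which encodes CD20, was 11.3 and 5.61 CPM at 22 days and 43.1 and 14.8 at 43 days on the standard diet, against 22.9, 30.6, 17.8 and 12.8 on GW3965, and *Cd79a*, of the B cell receptor, was 16.9 and 12.7 CPM at 22 days and 82.1 and 24 at 43 days on the standard diet, against 38.4, 45.1, 36.2 and 21.7 on GW3965. Both genes were highest in standard day 43 replicate 1 and lowest in the standard day 22 samples, and GW3965 day 22 was above GW3965 day 43 in the means. Of 15 lymphoid follicle genes, 8 were higher and 0 lower on the standard diet. The difference between the diets had an unadjusted p under 0.05, in the negative direction, for 16 of 20 B cell genes, 15 of 21 plasma cell genes and 8 of 15 follicle genes, against 9.8% of all genes. Of these, *Ighg2b* and *Ighg2c* passed the FDR. How much of this comes from follicles or plasma cell clusters caught in single biopsies was not tested.

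**Figure D4:**
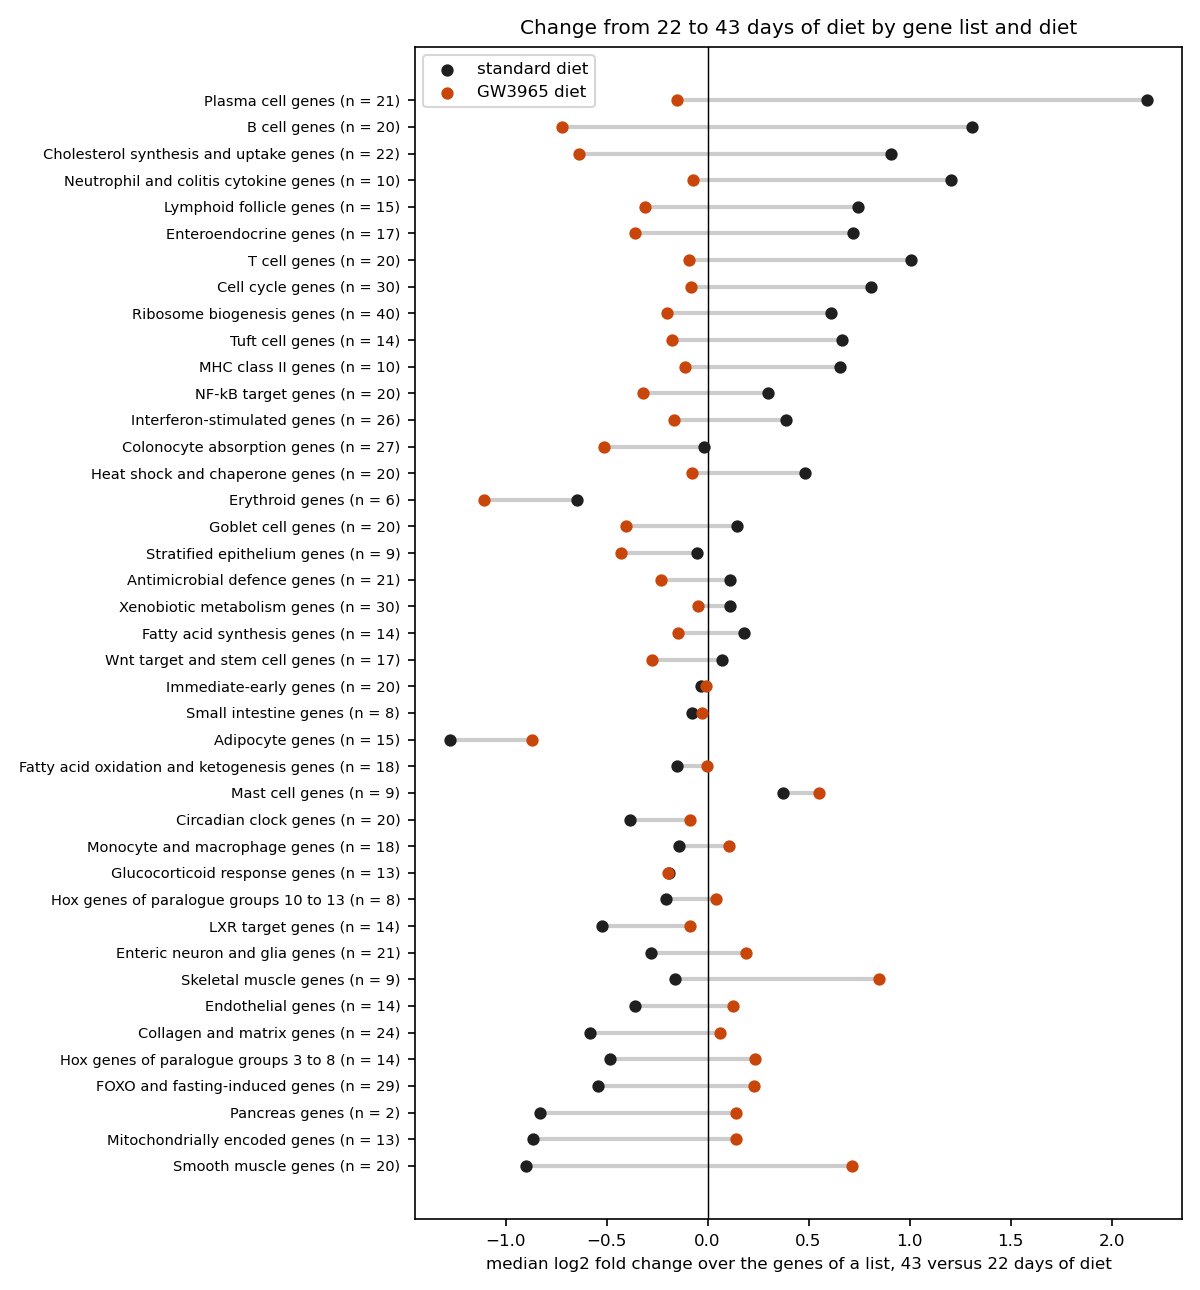
Median log2 fold change from 22 to 43 days over the tested genes of each of 41 lists, on the standard diet (black) and the GW3965 diet (orange), joined by a line and ordered by the difference between the diets. Plasma cell genes (2.18 and -0.15) are at the top, smooth muscle genes (-0.90 and 0.72) at the bottom, and adipocyte and erythroid genes are below 0 on both diets.

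The cell cycle and sterol synthesis lists followed the same order in their medians. Of 30 cell cycle genes, 20 were higher and 0 lower on the standard diet (median 0.81), against 10.2% and 9.48% of all genes, and none had an unadjusted p under 0.05 on GW3965 (median -0.08). *Pcna*, the replication clamp, was 84.6 and 60.7 CPM at 22 days and 129 and 143 at 43 days on the standard diet, against 111, 103, 98.6 and 101 on GW3965, and *Mcm5*, of the replicative helicase, was 23.5 and 12.7 CPM at 22 days and 44.7 and 56.8 at 43 days on the standard diet, against 38.1, 38.9, 36.1 and 31.4 on GW3965. The lowest sample of both genes was standard day 22 replicate 2. These genes had the smallest p of the list for the difference between the diets. That difference was negative at an unadjusted p under 0.05 for 16 of the 30 genes. *Mki67*, among the most abundant members, was not part of this (unadjusted p = 0.509, adjusted p = 0.717, edgeR). Of 22 cholesterol synthesis and uptake genes, 13 were higher and 0 lower on the standard diet (median 0.91) and 0 were higher and 7 lower on GW3965 (median -0.64). *Hmgcs1*, an early enzyme of the pathway, was 320.1 and 134 CPM at 22 days and 449.7 and 641 at 43 days on the standard diet, against 358, 211, 147 and 103 on GW3965. Its levels ran in opposite directions with time on the diets, with a difference of -2.45 ± 0.61 (SE) (unadjusted p = 0.00386, adjusted p = 0.161, edgeR). Of 20 heat shock and chaperone genes, 10 were higher and 0 lower on the standard diet, with *Hspe1*, a mitochondrial chaperone, at 92.7 and 96.4 CPM at 22 days and 149.5 and 146 at 43 days on the standard diet, against 137, 114, 122 and 117 on GW3965.

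Epithelial and stromal lists differed as well. Of 17 enteroendocrine genes, 8 were higher and 0 lower on the standard diet (10.2% and 9.48% of all genes) and 0 were higher and 3 lower on GW3965 (1.97% and 2.95% of all genes). *Insl5*, a hormone of distal colonic L cells, was 53.9 and 37.8 CPM at 22 days and 86.0 and 96.2 at 43 days on the standard diet, against 74.1, 49.7, 35.5 and 30.9 on GW3965 (difference -1.89 ± 0.32 (SE), adjusted p = 0.113, edgeR), and *Pyy*, of the same cells, was 129 and 68.3 CPM at 22 days and 151 and 193 at 43 days on the standard diet, against 157, 121, 89.4 and 81.6 on GW3965. Of 20 goblet cell genes, 7 were lower and 0 higher on GW3965, with the mucus lectin gene *Zg16* at 2056 and 919 CPM at 22 days and 1852 and 1851 at 43 days on the standard diet, against 2398, 975, 531 and 600.3 on GW3965. *Zg16* was highest in GW3965 day 22 replicate 1, the sample poorest in muscle, and lowest in the GW3965 day 43 samples. Smooth muscle ran the other way: of 20 genes, 0 were higher and 9 lower on the standard diet (median -0.90), 3 were higher and 0 lower on GW3965 (median 0.72), and 19 had a positive difference between the diets at an unadjusted p under 0.05. *Myh11*, smooth muscle myosin, was 2071 and 4189 CPM at 22 days and 1472 and 1152 at 43 days on the standard diet, against 927, 1731, 1829 and 2495 on GW3965. All 13 mitochondrially encoded genes were lower on the standard diet at an unadjusted p under 0.05 (median -0.86), with *mt-Co1* at 28022 and 41834 CPM at 22 days and 19405 and 19273 at 43 days on the standard diet, against 20188, 15570, 20846 and 19791 on GW3965, and 1 was higher on GW3965. Of 24 collagen and matrix genes, 13 were lower on the standard diet and none passed 0.05 on GW3965.

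The smooth muscle level was then added as a covariate, an alternative chosen after the data were seen. This level itself differed between the diets over time, with 19 of 20 genes at an unadjusted p under 0.05 (edgeR). It therefore cannot be told apart from the difference it adjusts, and the medians below do not sort the lists by cause. The median difference between the diets went from -0.86 to -0.02 for cell cycle genes, from -1.68 to -0.11 for cholesterol synthesis genes and from -1.15 to -0.44 for enteroendocrine genes. It went from -0.79 to -0.60 for ribosome biogenesis genes, from 0.92 to 0.63 for FOXO and fasting-induced genes, from -2.54 to -3.09 for plasma cell genes and from -2.06 to -2.50 for B cell genes. With this term 74 genes passed on the standard diet, and none for the difference between the diets.

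**Figure D5:**
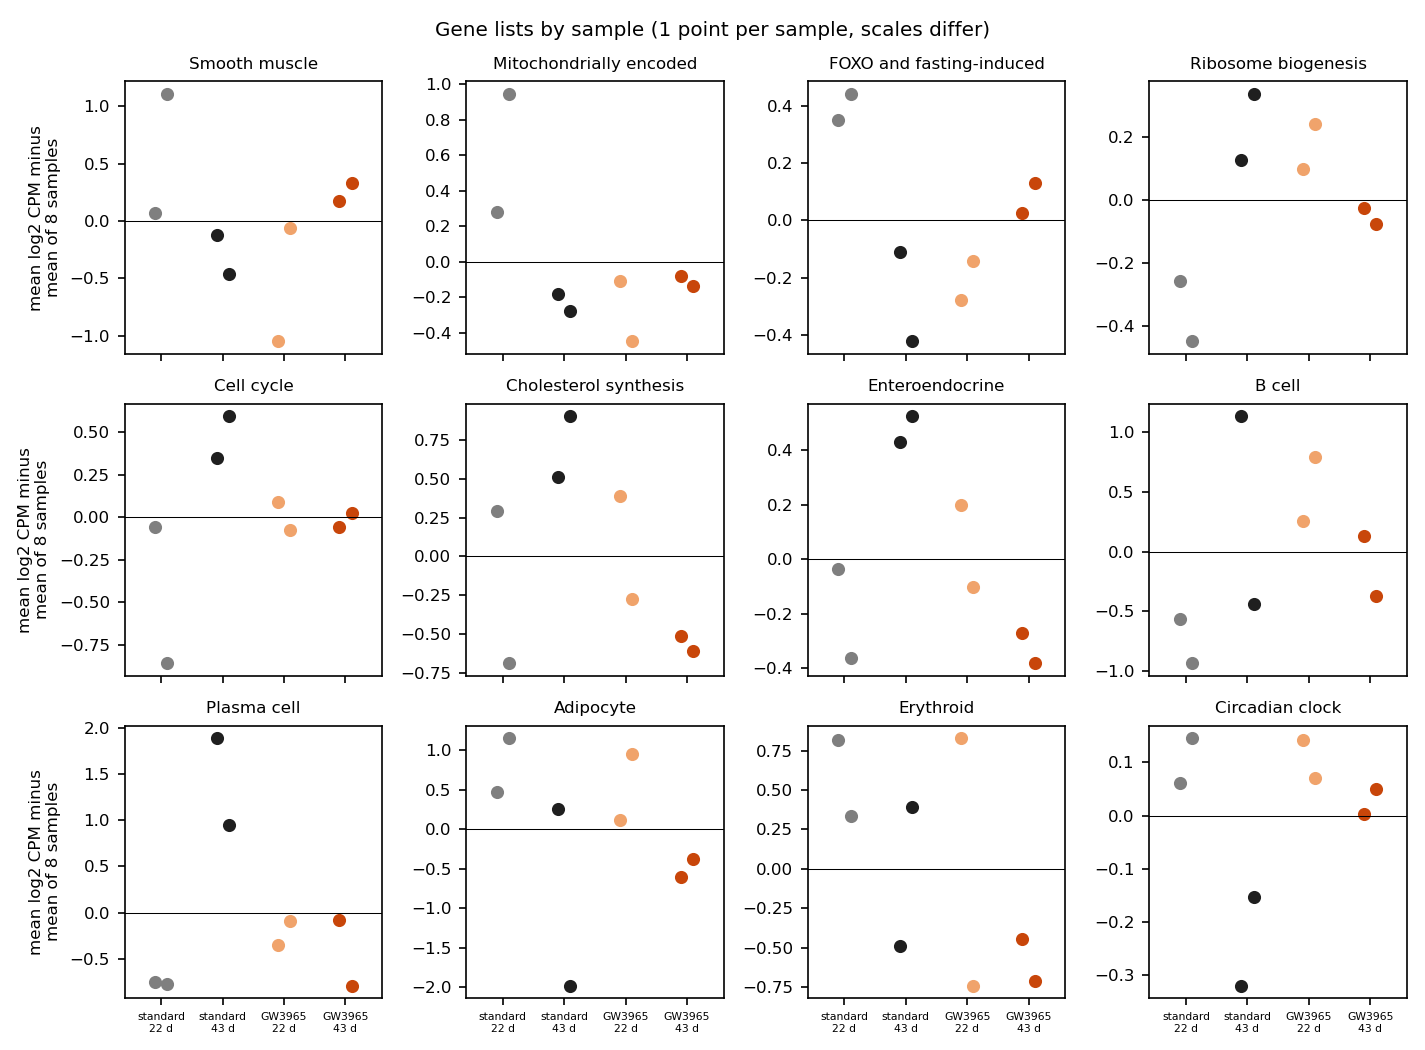
Mean log2 CPM of 12 gene lists in each of the 8 untreated samples, after subtracting the mean of the 8, with 1 point per sample and a scale for each panel. Smooth muscle and mitochondrially encoded genes are highest in standard day 22 replicate 2, FOXO and fasting-induced genes are high and ribosome biogenesis genes low in both standard day 22 samples, and plasma cell genes are highest in the standard day 43 samples.

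Further genes of smallest p on GW3965 were of mast cells, signalling and zinc transport. *Mcpt4*, a protease of connective tissue mast cells, was 2.32 and 2.85 CPM at 22 days and 4.98 and 2.18 at 43 days on the standard diet, against 0.157, 0.376, 1.58 and 5.13 on GW3965, and *Npy6r*, a neuropeptide Y receptor gene, was 0.157 and 0.047 CPM at 22 days and 1.10 and 0.917 CPM at 43 days on GW3965. *Pdlim2*, which promotes degradation of an NF-kB subunit, was 25 and 19.3 CPM at 22 days and 10.6 and 8.80 CPM at 43 days on GW3965, and 21.6 to 26 CPM in the standard samples. *Slc30a1*, a zinc exporter, was 30.5 and 26.5 CPM against 16.9 and 18 CPM on GW3965. None passed, with an adjusted p of 0.869 for each of these 4 genes by edgeR.

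The untreated samples were last set beside 12 samples of AOM–DSS mice from the same days, 3 per diet and day, kept in other cages. The RNA integrity numbers of the AOM–DSS samples were 9.1 to 10 on day 22 and 2.6 to 9.3 on day 43, and their ribosomal protein genes took 6.06% to 10.7% and 10.0% to 18.6% of the counts, against 5.33% to 6.51% in the 8 untreated samples. In a fit of both with the ribosomal protein percentage as a covariate, the change from day 22 to day 43 differed between untreated and AOM–DSS colon for 76 of 17143 genes (0.443%), and none of the 31 genes that the rule of smallest p chose was among them. That fit averaged the change over both diets. It therefore cannot decide the question for genes chosen for a change on 1 diet or for the difference between the diets. Without the AOM–DSS sample of RNA integrity number 2.6 there were 99 calls, and without the covariate 156. The part of RNA quality in the remaining calls was not tested. The difference between the diets in that change was itself called for 1 gene within AOM–DSS colon (0.00583%), and no gene passed when the untreated and AOM–DSS differences were compared (0%, with 867 at an unadjusted p under 0.05 by edgeR, the tool used for this fit). Of the 12 genes named for the difference between the diets, 9 had the same sign in AOM–DSS colon. *Efna1* had a difference of 1.37 ± 0.39 (SE) there (unadjusted p = 0.0033, adjusted p = 0.781), and *Ccne1* of -1.17 ± 0.43 (SE) (adjusted p = 0.781, edgeR), whereas *Ighg2c* had 1.84 ± 0.78 (SE), the opposite sign to untreated colon (adjusted p = 0.781, edgeR). Over all genes tested in both, 58.2% had the same sign, and 66.0% of the 3003 with an unadjusted p under 0.05 in untreated colon.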

How the data were processed

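RNA of 26 colon samples was sequenced as paired-end reads from polyA libraries. The authors quantified reads with Kallisto on GRCm38 cDNA (tool and build also per the submitters' processing notes, version not given in the sources used here) and deposited, per transcript, estimated counts without normalization and TPM values, which are scaled to transcript length and library size. The estimated counts of 116728 of 119414 transcripts were summed to genes of the GENCODE annotation of GRCm38 and rounded, and TPM was summed likewise. The transcripts left out held 0.785% to 0.916% of the counts of the 8 untreated samples.

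Genes were filtered with filterByExpr over the 4 groups of diet and day and normalized by TMM, and tested with edgeR 4.0.16 (R 4.3.3) by the quasi-likelihood F-test with Benjamini-Hochberg adjustment over all genes, with FDR < 0.05 as the threshold. Models held diet and day, diet by day, or the 4 groups with 4 residual degrees of freedom. CPM values were scaled by the TMM-normalized library sizes. The SE beside an edgeR log2 fold change is its absolute value divided by the square root of the F statistic, not a fitted standard error. Alternatives used DESeq2 1.42.0, limma 3.58.1, other filters, normalizations and covariates, and left samples out. The study's model held a percentage of ribosomal RNA, whose input is not given in the sources used here. In its place the share of each sample's counts held by 88 ribosomal protein genes, as a percentage, was used as a covariate, for the untreated samples alone as an alternative, since all 8 had an RNA integrity number of 10. The tests were run on simulated counts whose changes were larger than most of those reported here, so that smaller changes were not checked. Lists and plots were made in Python 3.11.15 (pandas 2.3.3; numpy 2.4.6; matplotlib 3.10.9).

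The comparison, the 38 gene lists and the rule for naming genes were chosen with earlier results of these data known, and 3 further lists after these values were seen. By the rule, 12 genes of smallest p in each direction would be named for the pooled comparison if they passed, otherwise 6, then 6 in each direction for the difference between the diets, 4 in each direction within each diet, and per list the members of highest level and smallest p, leaving out gene models without a usual symbol and single variable segments. *Irs2*, *Adipoq*, *Ighv6-3* and *Abcg8* beside the GW3965 samples were also named, and 3 genes that the rule chose are not reported here. The experiment was run once and samples may be pools of mice, so that p-values measure only the spread between these samples, and counts of reads limit their precision for low genes.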

Additional observations from a re-analysis of the deposited data

Results flagged for a closer look

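The difference between the diets in the change from 22 to 43 days passed the test for *Ighg2c* (log2 difference -6.23) and *Ighg2b* (log2 difference -4.53). Both genes were highest in the standard day 43 samples, and *Ighg2c* was also lower at 43 than at 22 days on GW3965 (log2 fold change -2.32).

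Of 52 sets of 4 samples of a day examined for 1 sample far from the other 3, 2 were marked, where chance marks about 1 in 20. In *Nup93* at 22 days the gap of the highest sample, GW3965 replicate 2 at 20.0 CPM, to its nearest neighbour was 0.919 of the range of the 4. In the share of counts on ribosomal protein genes at 43 days that proportion was 0.870.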

How the results depend on the processing

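The pooled comparison called 0 genes under 18 of 20 alternatives, 3 without a filter on low counts and 17 with DESeq2. The fit without the sample of conflicting diet label is counted under 2 names, here and in the values below. It is both its own alternative and 1 of the fits that left out 1 sample at a time. Without a filter the difference between the diets had 1177 calls, the standard diet 1300 and GW3965 59. DESeq2 gave 705, 924 and 9, and limma-voom 0, 3 and 0. With the ribosomal percentage there were 4 calls for the difference and 2 on the standard diet, with the smooth muscle mean, added later, 0 and 74, and without the sample of conflicting diet label 0 and 3. Samples left out 1 at a time gave 0 to 682 calls for the difference, 0 to 484 on the standard diet and 0 in the pooled and GW3965 comparisons. The difference between untreated and AOM–DSS colon had 156 calls without the ribosomal percentage, against 76. The cause of these shifts was not tested. The replicate numbers are shared only as numbers: deviations of same-numbered samples correlated at -0.44 on the standard diet and -0.12 on GW3965, and the replicate block left 1 call for the difference, 1 on the standard diet and 0 in the others. All 777 values of single genes under the alternatives kept their direction, as did 1440 of 1558 list medians. These genes were chosen by smallest p in the same samples, which the alternatives reuse in whole or in part. Their kept direction is therefore no independent support, and whether they passed the threshold shifted with the calls given above.

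Depth limits genes under 1 CPM the most, since each of their values rests on few reads, and 2 samples per diet and day limit every call.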
